A study of Mus musculus with 2 samples.

Results

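Proteasome genes were followed through single immune cells of mouse lungs that carried breast cancer metastases. The 48 genes were chosen by symbol, as every gene of the distal gene list named Psma, Psmb, Psmc, Psmd, Psme, Psmf or Psmg with a number. All 48 were found by Ensembl identifier in the niche gene list, which shared 29413 identifiers with the distal list. Of these genes 47 had at least 20 UMIs (unique molecular identifiers, the count of captured RNA molecules) over both libraries. Psmb11, the catalytic subunit of thymic epithelium, had 0 UMIs in the cells kept from both libraries. Levels are given in CPM, a gene's UMIs per 1000000 UMIs of the same cells. As a floor, 3 UMIs over all UMIs of a library before filtering would be 0.0789 CPM in the niche and 0.134 CPM in the distal library.

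The study labelled 1 library as immune cells of the metastatic niche and 1 as immune cells of the distal lung, both sorted from lungs with metastases. Both came from female Balb/c mice, 7 days after Labelling-4T1 cells had been given into a vein, so neither group is a lung without cancer cells. The 4T1 line comes from a mouse mammary carcinoma, and labelling cells of this kind release a fluorescent protein that neighbouring cells take up, which allows neighbours to be sorted. Both libraries were made with a droplet 3′ kit, and neither the number of animals nor the sort gates are given in the sources used here.

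The niche library had 38036915 UMIs in 3242 barcodes and the distal library 22323465 in 3945. After filtering, 3080 niche cells with a median of 11192.5 UMIs and 3536 distal cells with a median of 5789.5 UMIs remained, and 4 barcodes occurred in both. Ptprc, the pan-leukocyte marker CD45, was at 430.1 CPM in niche against 682.4 CPM in distal cells, against 129.3 CPM and 83.4 CPM in a cluster of 33 niche and 124 distal cells led by epithelial and endothelial genes. Clusters were built without the proteasome genes and named from marker lists. Each group being 1 library, nothing was replicated or tested. Every interval in brackets is a 95% interval that covers counting error only, and each niche and distal difference is one between these libraries, which also differed in counting software and gene list. A gene is called higher or lower where its ratio passed 1.5-fold, or 1.2-fold where stated, with a counting interval that left out 0 on the log2 scale.

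The proteasome degrades proteins tagged with ubiquitin. Its 20S core is a barrel of alpha and beta rings, the 19S cap with its ATPase base and lid recognises and unfolds the substrate, and PA28, made of Psme1 and Psme2, is another cap that opens the core. In the standard, or constitutive, core the cutting sites are formed by Psmb5, Psmb6 and Psmb7. Interferon gamma induces Psmb8, Psmb9 and Psmb10, which take their places in newly built cores, in that order, and this immunoproteasome cuts more peptides with ends that fit MHC class I molecules. Cells of the blood lineage often hold it without stimulation.

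The promoters of 5 of the members that carried the contrasts described here are shown: Psmb8 and Psmb9 of the immunoproteasome, the caps' Psme1, and Psmb6 and Psmb5 of the standard core. Psmb10 and Psme2, which also carried them, are not shown. They are RefSeq windows of GRCm38.p6, from 250 bases before to 50 after the annotated start, written along the gene's own strand. Capitals mark the GAS motif TTCNNNGAA, the interferon gamma activated site, the ISRE motif, bound by interferon regulatory factors, read as GAAA, any 2 bases and GAAA, or the antioxidant response motif TGACNNNGC, bound by Nrf factors. All were searched on both strands.
Psmb8, chr17:34197945-34198244, plus strand: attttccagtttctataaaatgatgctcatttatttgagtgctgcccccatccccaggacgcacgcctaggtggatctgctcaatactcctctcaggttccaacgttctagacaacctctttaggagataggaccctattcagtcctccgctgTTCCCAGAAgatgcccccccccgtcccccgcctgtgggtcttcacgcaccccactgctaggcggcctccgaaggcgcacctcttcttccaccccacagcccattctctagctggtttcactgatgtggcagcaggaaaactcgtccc
Psmb9, chr17:34187281-34187580, minus strand: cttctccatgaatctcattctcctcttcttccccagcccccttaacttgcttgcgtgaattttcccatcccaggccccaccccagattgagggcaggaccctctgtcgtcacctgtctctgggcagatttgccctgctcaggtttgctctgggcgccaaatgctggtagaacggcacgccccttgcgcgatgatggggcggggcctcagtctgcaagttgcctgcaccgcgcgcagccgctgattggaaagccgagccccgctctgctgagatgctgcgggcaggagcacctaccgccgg
Psme1, chr14:55578244-55578543, plus strand: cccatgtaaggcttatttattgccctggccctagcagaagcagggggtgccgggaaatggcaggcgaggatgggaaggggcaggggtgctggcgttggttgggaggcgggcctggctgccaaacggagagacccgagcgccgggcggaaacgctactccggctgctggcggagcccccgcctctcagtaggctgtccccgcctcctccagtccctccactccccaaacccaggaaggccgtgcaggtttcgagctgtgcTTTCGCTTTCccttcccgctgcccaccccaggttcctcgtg
Psmb6, chr11:70525107-70525406, plus strand: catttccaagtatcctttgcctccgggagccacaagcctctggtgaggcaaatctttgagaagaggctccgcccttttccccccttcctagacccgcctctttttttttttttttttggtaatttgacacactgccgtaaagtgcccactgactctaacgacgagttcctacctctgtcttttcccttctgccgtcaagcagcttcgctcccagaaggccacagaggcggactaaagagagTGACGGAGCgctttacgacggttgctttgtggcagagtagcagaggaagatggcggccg
Psmb5, chr14:54617946-54618245, minus strand: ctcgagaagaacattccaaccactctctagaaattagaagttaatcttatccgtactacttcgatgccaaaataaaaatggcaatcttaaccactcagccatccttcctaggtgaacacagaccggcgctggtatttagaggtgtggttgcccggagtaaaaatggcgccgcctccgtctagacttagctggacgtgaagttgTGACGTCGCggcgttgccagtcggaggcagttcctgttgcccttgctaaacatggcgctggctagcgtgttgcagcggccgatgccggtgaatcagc

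The Psmb8 window held a GAS match 97 bases before the start, and that of Psme1 an ISRE match 9 bases after it. Psmb5 and Psmb6 held antioxidant response matches 47 and 9 bases before their starts. The letters of these motifs were not found in the Psmb9 window, nor in the windows of Psmb10 and Psme2. Of 40 member genes with a RefSeq entry, 3 held the GAS motif (Psmb8, Psmd2 and Psmg1), 5 the ISRE motif (Psmb3, Psmd4, Psmd9, Psme1 and Psmg4) and 6 the antioxidant response motif (Psmb5, Psmb6, Psmc6, Psmd12, Psmd9 and Psme4). Among 32851 promoters of the same length these motifs stood in 8.30%, 3.44% and 12.4%, so the GAS and antioxidant response motifs are common and the ISRE motif less so. Counted by promoter, as these shares are, the members held them in 3, 5 and 6 of 43. Enrichment was not tested. Psmb9 and Psmb8 lie close together on chromosome 17, at chr17:34181987-34187764 and chr17:34197721-34201454, as do Psme1 and Psme2 on chromosome 14, at chr14:55578123-55581529 and chr14:55587441-55591113 (GENCODE, GRCm38). The windows shown for Psmb8, Psmb9 and Psme1 lie inside these GENCODE spans, past their 5′ ends, so RefSeq and GENCODE differ in the start of these genes.

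Proteasome RNA differed widely between cell classes. Within the distal library the 47 genes together were at 12434 CPM in migratory dendritic-like cells, 11011 CPM in dendritic-like cells, 10942 CPM in monocyte/macrophage-like cells and 9805 CPM in T cell-like cells. Lower levels were found in proliferating alveolar macrophage-like cells (8135 CPM), non-classical monocyte-like cells (8056 CPM), alveolar macrophage-like cells (7975 CPM), interstitial macrophage-like cells (7296 CPM) and B cell-like cells (6500 CPM). Neutrophil-like cells were lowest, with 2381 CPM and a median of 1064 UMIs per cell. In the niche library the sums were 12988 CPM in monocyte/macrophage-like, 12732 CPM in proliferating monocyte/macrophage-like, 12272 CPM in migratory dendritic-like, 11107 CPM in dendritic-like and 10496 CPM in interstitial macrophage-like cells.

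Summed, the immunoproteasome genes had more UMIs than their standard partners in every class measured. Their share, the UMIs of Psmb8, Psmb9 and Psmb10 among those of all 6 catalytic genes, was read as a measure to compare cells, since the capture of different transcripts can differ and RNA is not assembled protein. It was highest in migratory dendritic-like cells, which carry antigen to lymph nodes, at 80.7% (79.0 to 82.3) in the niche and 81.4% (79.1 to 83.5) in the distal library. Dendritic-like cells, 1 cluster holding conventional and plasmacytoid markers, followed with 77.1% (75.1 to 78.9) in the niche and 79.2% (78.2 to 80.3) in the distal library. Most other classes of the distal library lay close together: B cell-like 76.2% (73.2 to 79.1), monocyte/macrophage-like 75.2% (74.2 to 76.3), non-classical monocyte-like 75.1% (73.2 to 76.9), neutrophil-like 74.3% (68.8 to 79.3), T cell-like 73.7% (72.3 to 75.0) and interstitial macrophage-like 72.7% (70.2 to 75.1). Each of these 6 overlapped its neighbour in the order within counting error. Alveolar macrophage-like cells, which live in the air spaces and clear them, stood below all of them at 63.2% (62.4 to 63.9), and their proliferating cells at 67.9% (65.7 to 70.0). With each cell thinned to 2000 UMIs, alveolar macrophage-like cells were still lowest in the distal library at 61.6%, whereas B cell-like cells were highest at 78.6%.

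**Figure D1:**
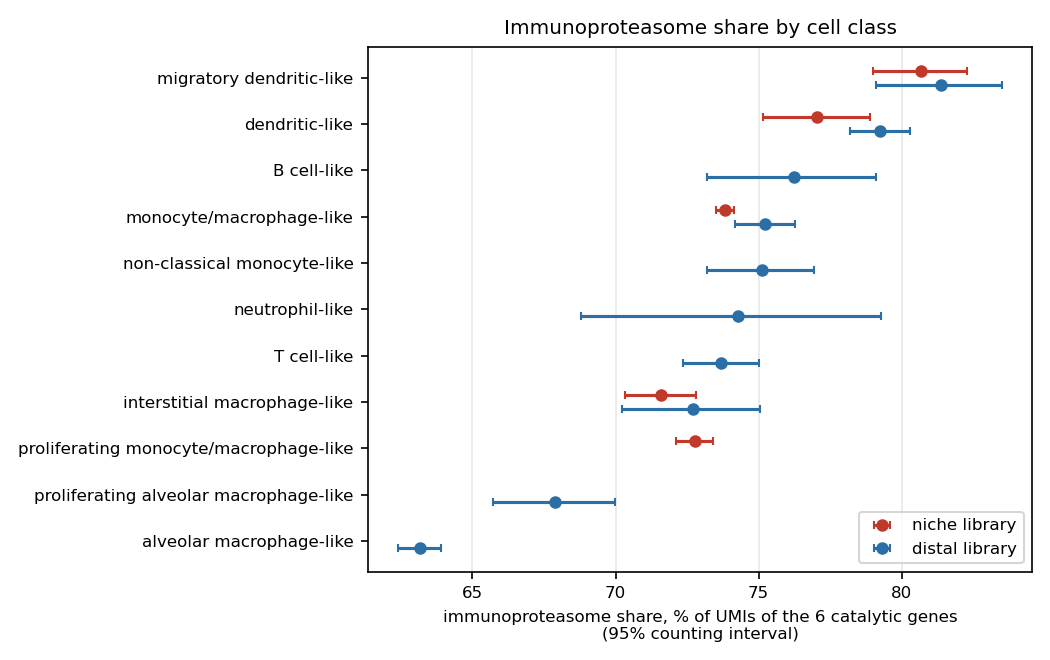
Percentage of UMIs of the 6 catalytic genes that belong to Psmb8, Psmb9 and Psmb10, by cell class (rows), for the niche (red) and distal (blue) library. Points are sums over all cells of a class with at least 50 cells and bars are 95% Clopper-Pearson intervals. Alveolar macrophage-like cells lie at 63.2% and migratory dendritic-like cells at 80.7% (niche) and 81.4% (distal).

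Each subunit pair gave its own order. Psmb8 made up 88.7% (86.0 to 91.0) of Psmb8 and Psmb5 in distal migratory dendritic-like cells, 80.1% (78.7 to 81.5) in distal monocyte/macrophage-like and 67.2% (66.1 to 68.3) in alveolar macrophage-like cells. Psmb9 made up 75.6% (73.6 to 77.5) of Psmb9 and Psmb6 in distal dendritic-like cells, 65.4% (63.2 to 67.4) in distal monocyte/macrophage-like and 48.7% (47.3 to 50.03) in alveolar macrophage-like cells. Psmb10 varied less across macrophages, with 78.6% (76.4 to 80.7) of Psmb10 and Psmb7 in distal monocyte/macrophage-like and 75.5% (74.1 to 76.9) in alveolar macrophage-like cells. Its share was lower in distal dendritic-like (71.2%, 68.1 to 74.3) and T cell-like cells (65.1%, 61.3 to 68.7), whose Psmb9 shares lay above that of monocyte/macrophage-like cells, that of T cell-like cells (68.7%, 66.1 to 71.3) with an overlapping interval. For Psmb9 the highest distal class was neutrophil-like cells at 78.3% (67.9 to 86.6), with an interval that overlapped those of dendritic-like and migratory dendritic-like cells (73.6%, 69.2 to 77.6). For Psmb10 neutrophil-like cells were lowest at 57.1% (42.2 to 71.2), below alveolar macrophage-like cells.

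**Figure D2:**
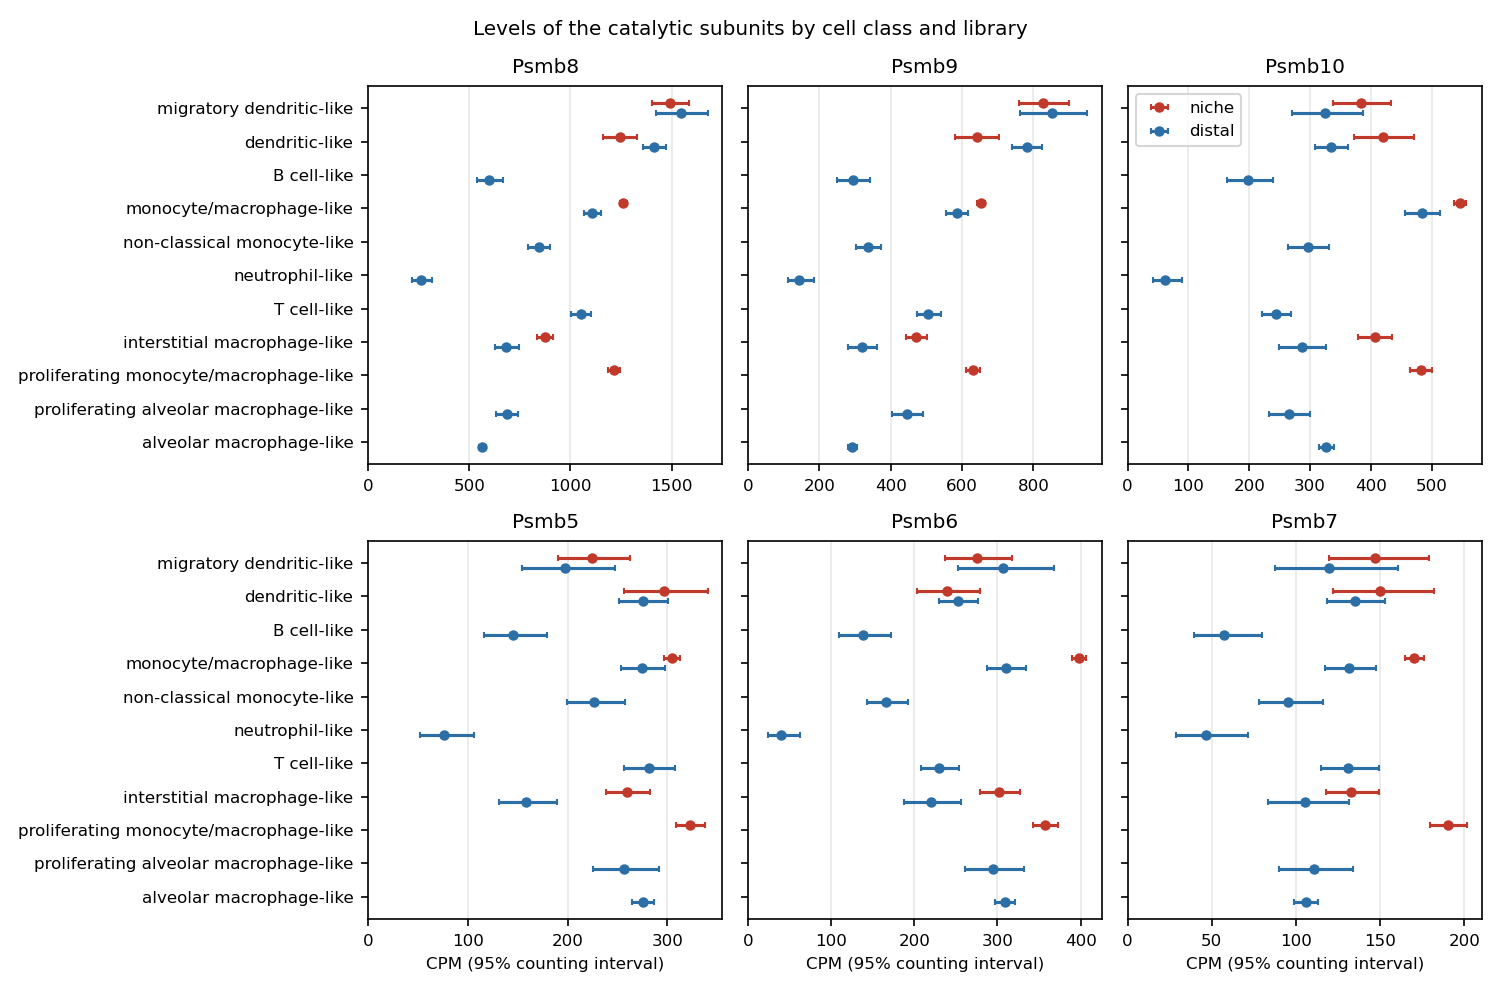
Level in CPM of the immunoproteasome genes (upper row) and their standard partners (lower row) by cell class, for the niche (red) and distal (blue) library, with 95% Poisson intervals. Psmb8 reaches 1492 CPM in niche against 1547 CPM in distal migratory dendritic-like cells, and neutrophil-like cells lie lowest for each of the 6 genes.

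Alveolar macrophage-like cells were compared with monocyte/macrophage-like cells inside the distal library, over 1135 and 292 cells with median depths of 7145 and 7310.5 UMIs. Psmb8 was at 564.3 CPM in alveolar and 1109 CPM in monocyte/macrophage-like cells, a log2 ratio of -0.97 (-1.04 to -0.90). Psmb9 was at 293.0 CPM and 585.3 CPM (-0.999, -1.09 to -0.90), and Psmb10 at 326.3 CPM and 484.0 CPM (-0.57, -0.67 to -0.47). The standard subunits were close to level: Psmb5 was at 275.4 CPM in alveolar and 274.6 CPM in monocyte/macrophage-like cells, Psmb6 at 309.3 CPM and 310.3 CPM, and only Psmb7 was lower, at 105.9 CPM and 131.8 CPM. Summed, the immunoproteasome genes had a log2 ratio of -0.88 (-0.93 to -0.83) and the standard genes one of -0.05 (-0.13 to 0.03).

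In the same comparison the PA28 genes Psme1 and Psme2 lay below 0 and the cap genes Psme3 and Psme4 above it. The 17 genes of the 19S base and lid had a median log2 ratio of -0.29, with 2 above 0 and 12 with their whole interval below it. Psme1 was at 517.1 CPM in alveolar and 1021 CPM in monocyte/macrophage-like cells (-0.98, -1.05 to -0.91), and Psme2, whose near-identical copy Psme2b may take part of its reads, at 500.0 CPM and 679.7 CPM (-0.44, -0.53 to -0.36). Psme3, the PA28 gamma cap of the nucleus, was at 49.7 CPM in alveolar and 26.9 CPM in monocyte/macrophage-like cells (0.88, 0.50 to 1.30). Psme4, which encodes the cap protein PA200, was at 58.9 CPM and 29.1 CPM (1.01, 0.65 to 1.41). Of 47 genes 5 were called lower in alveolar macrophage-like cells, namely Psmb8, Psmb9, Psme1, the lid gene Psmd8 and the beta ring gene Psmb2, against 12.6% of all genes. Only Psme3 and Psme4 were called higher, against 32.5% of all genes. The median over the 47 genes was -0.29, with 37 below 0, whereas the median over all genes was 0.29. Summed T cell markers were at 349.7 CPM in alveolar and 42.8 CPM in monocyte/macrophage-like cells, with none of 9 genes at 0 in either, and epithelial or carcinoma markers at 95.7 CPM and 6.17 CPM, with none of 6 at 0 in either. Neutrophil markers were at 256.5 CPM and 265.3 CPM, and the median mitochondrial share was 4.23% and 2.96%. Their part in these differences was not tested.

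**Figure D3:**
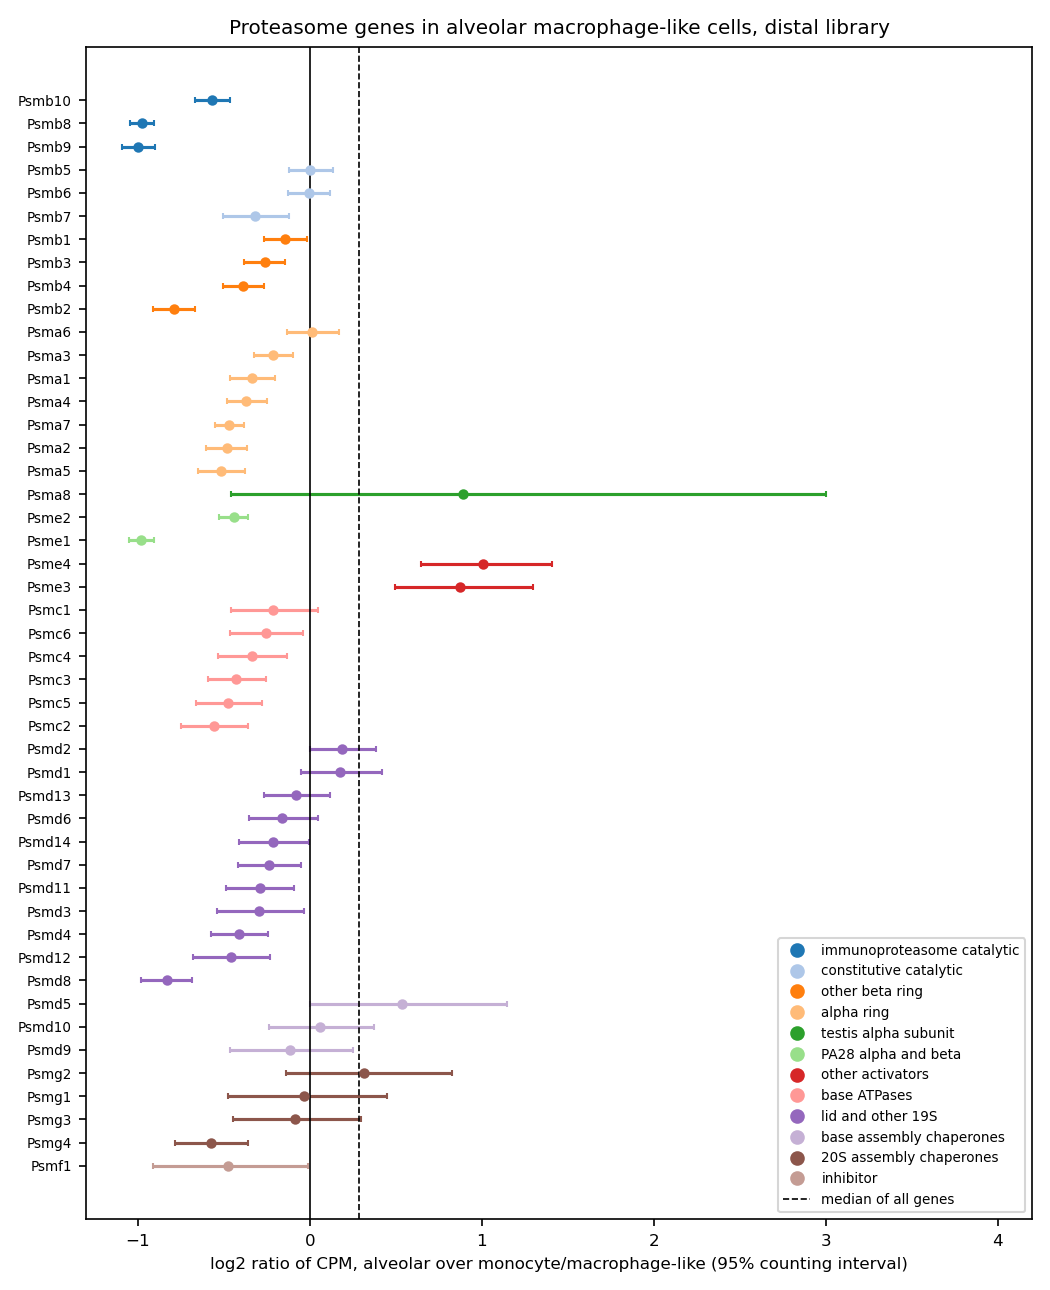
Log2 ratio of CPM, alveolar over monocyte/macrophage-like cells of the distal library, for each proteasome gene (rows, coloured by role), with 95% counting intervals. The solid line is no difference and the dashed line the median of all genes at 0.29. Psmb8, Psmb9 and Psme1 lie near -1 while Psmb5 and Psmb6 lie at 0.00 and -0.01.

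Proliferating alveolar macrophage-like cells differed from the other alveolar macrophage-like cells of the distal library in Psmb9, at 446.1 CPM and 293.0 CPM (0.61, 0.45 to 0.76), while Psmb10 ran the other way, at 265.3 CPM and 326.3 CPM (-0.30, -0.49 to -0.11). Psmb9, Psmd9, a chaperone of 19S base assembly, and Psmg2, a chaperone of 20S assembly, were called higher, 3 of 47 genes against 14% of all genes. The median log2 ratio over all genes was 0.11, and median depth was 9845.5 UMIs in proliferating and 7145 UMIs in the other alveolar macrophage-like cells. In the niche library proliferating monocyte/macrophage-like cells had 1670.7 CPM of Psme1 and Psme2, against 2059.3 CPM in the other monocyte/macrophage-like cells. Psmg1, another 20S assembly chaperone, was at 34.4 CPM and 22.9 CPM (0.59, 0.34 to 0.83). It and Psma8, the alpha subunit of testis, which had only 4.41 CPM and 2.19 CPM, were the 2 genes called, against 12.5% of all genes. Median depth was 21986 UMIs in proliferating and 11554 UMIs in other cells of this class. The part of depth in either comparison was not tested.

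Migratory dendritic-like cells had more PA28 RNA than the other dendritic-like cells in both libraries. In the niche library Psme2 was at 1371 CPM in migratory and 603.3 CPM in other dendritic-like cells (1.18, 1.01 to 1.36), and in the distal library at 1432 CPM and 586.4 CPM (1.29, 1.14 to 1.44). Psme1 was at 1760 CPM and 1112 CPM in the niche library (0.66, 0.53 to 0.80), and at 1741 CPM and 1076 CPM in the distal library (0.70, 0.56 to 0.82). The immunoproteasome genes moved less, with summed log2 ratios of 0.23 (0.13 to 0.33) in the niche and 0.11 (0.01 to 0.21) in the distal library, and the standard genes had -0.08 (-0.28 to 0.11) and -0.09 (-0.30 to 0.11). The median over all genes was -0.21 in the niche and -0.34 in the distal library, and that over the measured proteasome genes -0.09 and -0.03. Psme1 and Psme2 were the only genes called higher in the niche library, 2 of 45 against 11.8% of all genes. In the distal library Psmd8, Psmg4 and Psmd10 were called as well, making 5 of 46 against 9.79%. Called lower were Psma4, Psmd12, Psmd6 and Psmg2 in the niche library (20.3% of all genes) and Psmg3, Psme3 and Psmg2 in the distal library (22.6%). Among the 4 chaperones of 20S assembly the lowest ratio was -1.28 in the niche and -1.63 in the distal library, larger in size than those of PA28. Proliferation markers summed to 179.2 CPM in migratory and 320.4 CPM in other dendritic-like cells of the niche library, and to 69.2 CPM and 940.2 CPM in the distal library (2 of 7 genes, Birc5 and Ube2c, at 0 in distal migratory cells). Neutrophil markers summed to 45.2 CPM and 254.5 CPM in the niche library (3 and 2 of 9 at 0), and to 2085 CPM and 550.1 CPM in the distal library (Ly6g at 0 in both). Median depth was 8828 and 10297.5 UMIs in the niche and 6574.5 and 7974 UMIs in the distal library, and the part of these values was not tested.

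T cell-like cells of the distal library held 2 clusters that differed in nearly the whole set. In cluster 14, led by Cd3g, Nkg7 and Gzmb, the 47 genes summed to 10539 CPM, and in cluster 18, led by Lef1 and Tcf7, which mark naive T cells, to 5477 CPM. Of 46 genes 33 were called higher in cluster 14, against 24.9% of all genes, with a median log2 ratio of 0.95 against 0.40 for all genes. Psmb9 was at 558.1 CPM in cluster 14 and 194.5 CPM in cluster 18 (1.51, 1.10 to 1.97), and Psmb5 at 305.3 CPM and 138.9 CPM (1.12, 0.64 to 1.68). Summed, the immunoproteasome and standard genes had log2 ratios of 1.01 (0.82 to 1.204) and 1.19 (0.86 to 1.55). The share was 73.5% (72.1 to 74.9) in cluster 14 and 75.9% (70.9 to 80.5) in cluster 18. By pair, it was 69.1% and 62.8% for Psmb9 with Psmb6. For Psmb10 with Psmb7 it was 64.2% and 75.5%, and for Psmb8 with Psmb5 78.6% and 81.5%. The intervals of the clusters overlapped for each pair, and cluster 18 had only 77 UMIs of the standard genes. Median depth was 3281 UMIs in cluster 14 and 2509 UMIs in cluster 18. Proliferation markers summed to 2127 CPM over all distal T cell-like cells (none of 7 genes at 0) and were not summed by cluster. The part of depth and proliferation was not tested.

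Macrophage states of the niche library were set against cluster 5, led by Dnase1l3, Ms4a7 and C1qa. Cluster 1, led by type I interferon genes such as Rsad2 and Ifit1, had an immunoproteasome share of 77.0% (75.8 to 78.2), against 73.3% (72.8 to 73.8) in cluster 5. Its immunoproteasome genes had a summed log2 ratio of 0.32 (0.27 to 0.37) and its standard genes one of 0.04 (-0.06 to 0.12). None of its 47 genes was called higher at 1.5-fold, against 7.57% of all genes. Cluster 6, led by Fabp5, Gpnmb and Trem2 and kept out of the named classes because Il7r is among its leading genes, had a share of 63.4% (61.5 to 65.3), close to that of alveolar macrophage-like cells in the distal library. Psmb8 was at 791.3 CPM in cluster 6 and 1185 CPM in cluster 5 (-0.58, -0.69 to -0.48), while Psmb6 was at 497.8 CPM and 393.6 CPM (0.34, 0.20 to 0.48). The 3 standard genes went apart, with ratios from -0.33 to 0.34, 1 interval above 0 and 1 below. Summed, the immunoproteasome genes had a log2 ratio of -0.54 (-0.61 to -0.46) and the standard genes one of 0.13 (0.02 to 0.23). Psme3 was called higher, against 9.94% of all genes, and Psma5, Psmb2 and Psma4 lower, against 4.98%.

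Cluster 0, led by Ly6i, Cfb and Acod1, had higher proteasome RNA than cluster 5 in both libraries, by unequal amounts. In the niche library the sums were 13550 CPM in cluster 0 and 12205 CPM in cluster 5, and none of 47 genes was called higher against 4.11% of all genes. In the distal library they were 13344 CPM and 9443 CPM, and 10 of 46 genes were called higher, against 9.16%. Psme2 was at 957.6 CPM in cluster 0 and 499.8 CPM in cluster 5 of the distal library (0.94, 0.78 to 1.09), and at 880.9 CPM and 716.0 CPM in the niche library (0.30, 0.25 to 0.35).

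Over all niche monocyte/macrophage-like cells, 1659 cells against 292 in the distal library, most proteasome genes were slightly higher. The median log2 ratio of the 47 genes was 0.22, with a range of -0.10 to 0.52, and 44 lay above 0. All 10813 genes with at least 20 UMIs had a median of -0.01, with 48.8% above 0. For 33 of the 47 (70.2%) the whole interval lay above 0, against 11.6% of all genes, and for 0 it lay below, against 10.8%. Shares over all genes, here and elsewhere, were not matched on level, and counting intervals narrow as UMIs rise. No gene was called at 1.5-fold in either direction, against 4.2% of all genes higher and 4.82% lower. At 1.2-fold 17 were called higher, against 9.16%, and 0 lower, against 8.97%.

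The 7 alpha ring genes all had intervals above 0, with ratios between 0.18 (Psma1) and 0.28 (Psma4). Psmb8 was at 1262 CPM in niche against 1109 CPM in distal cells (0.19, 0.13 to 0.25), Psmb9 at 653.0 CPM and 585.3 CPM (0.16, 0.08 to 0.24), and Psmb10 at 546.7 CPM and 484.0 CPM (0.18, 0.09 to 0.27). Of the standard partners, Psmb6 and Psmb7 had larger ratios than these and Psmb5 a smaller one: Psmb5 was at 304.4 CPM and 274.6 CPM (0.15, 0.03 to 0.27), Psmb6 at 398.1 CPM and 310.3 CPM (0.36, 0.25 to 0.47), and Psmb7 at 170.1 CPM and 131.8 CPM (0.37, 0.20 to 0.54). Psme1 was at 1249 CPM and 1021 CPM (0.29, 0.23 to 0.35), and Psme2 at 810.2 CPM and 679.7 CPM (0.25, 0.18 to 0.33). Of the 17 genes of the 19S base and lid all lay above 0, 13 with their whole interval.

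The largest ratios among the other genes belonged to Psmg2, at 28.8 CPM in niche against 19.8 CPM in distal cells (0.52, 0.10 to 1.01), to the base ATPase Psmc6, at 148.8 CPM and 106.7 CPM (0.48, 0.29 to 0.67), and to the 19S scaffold Psmd1, at 111.0 CPM and 82.4 CPM (0.43, 0.21 to 0.65). Psmd1 shares exonic bases with Gm21972, a gene of the distal list only, so its ratio is uncertain. Lowest were Psme4 at 27.4 CPM and 29.1 CPM (-0.10, -0.46 to 0.30), the proteasome inhibitor Psmf1 at 25.0 CPM and 25.6 CPM (-0.05, -0.43 to 0.38), and Psmg3 at 34.0 CPM and 34.4 CPM (-0.02, -0.36 to 0.34). Psmg3 overlaps Gm26938, another gene of the distal list only.

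**Figure D4:**
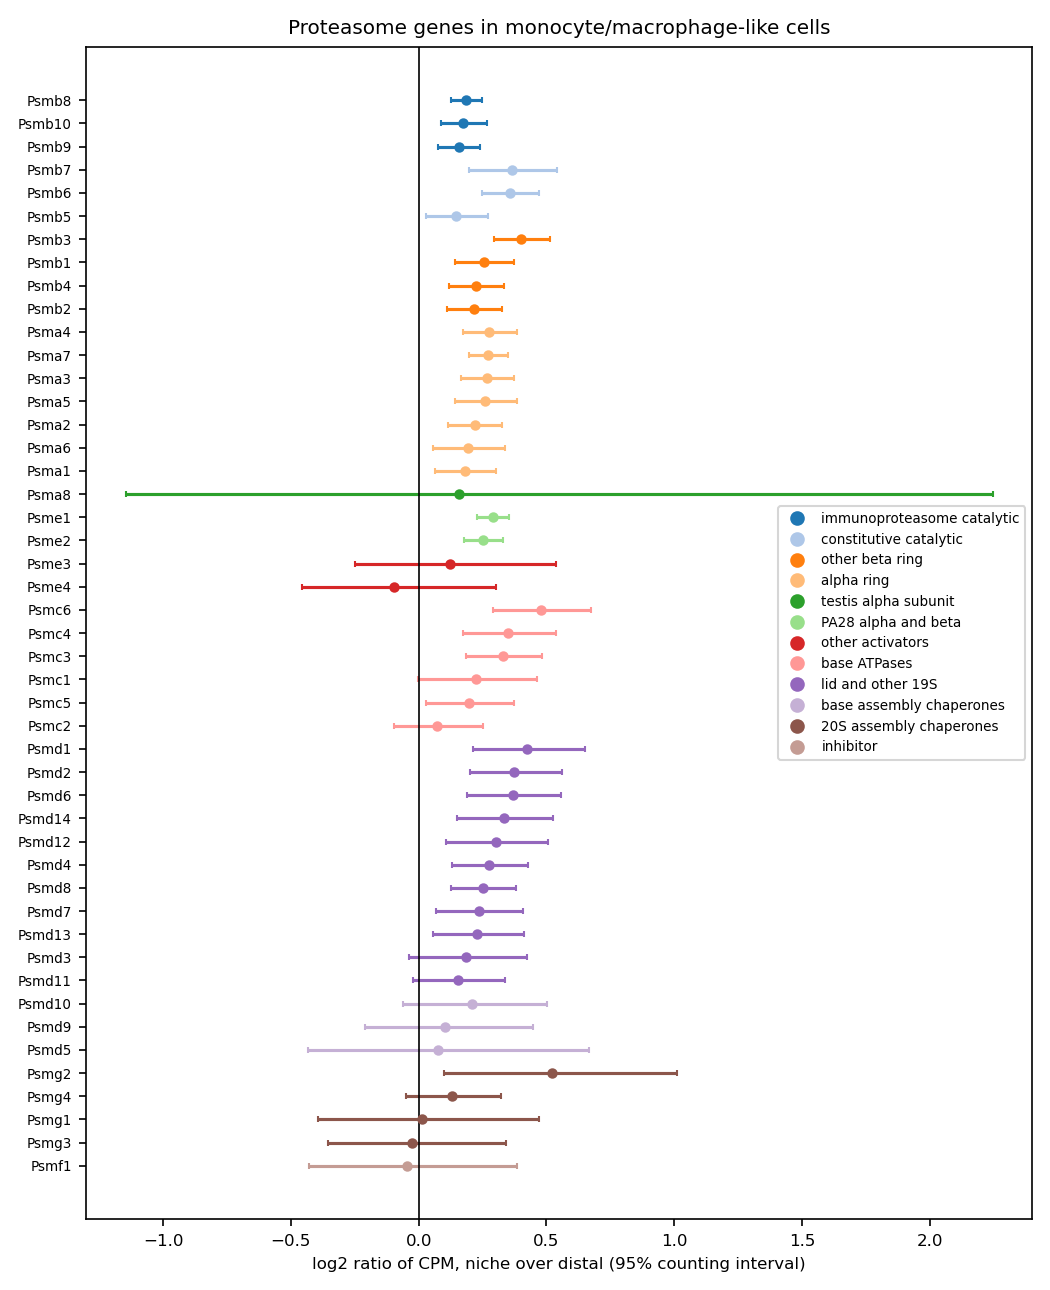
Log2 ratio of CPM, niche over distal, for each of 47 proteasome genes in monocyte/macrophage-like cells (rows, coloured by role), with 95% counting intervals. Points lie between -0.10 and 0.52, and the 7 alpha ring genes between 0.18 and 0.28.

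Different clusters held most of this class in each library, cluster 0 with 854 of 1659 niche cells and cluster 5 with 173 of 292 distal cells, so the clusters were also compared singly. Within cluster 0 the median log2 ratio of the 47 genes was 0.02, with 26 above 0, against -0.04 and 46.2% above 0 over all genes. All 3 immunoproteasome genes lay below 0 there, opposite to the whole class. Psmb9 was at 650.7 CPM in niche against 721.8 CPM in distal cells of cluster 0 (-0.15, -0.28 to -0.02), Psmb8 at 1308 CPM and 1354 CPM (-0.05, -0.14 to 0.04), and Psmb10 at 579.3 CPM and 604.6 CPM (-0.06, -0.20 to 0.08). Psme2 lay below 0 as well (-0.12, -0.23 to -0.01), whereas the 3 standard genes lay above 0, each with an interval that holds 0. Psmd4, Psmb3 and Psmc6 were called higher at 1.2-fold, against 4.08% of all genes, and none at 1.5-fold, against 2.7%. Within cluster 5 the median was 0.33, and 30 of 47 were called higher at 1.2-fold, against 9.82%. Psma4, at 405.6 CPM in niche against 268.6 CPM in distal cells (0.59, 0.44 to 0.76), and Psmd12, at 114.2 CPM and 69.6 CPM (0.71, 0.41 to 1.04), passed 1.5-fold, against 5.05% of all genes. The median of the class lay between those of these clusters. Whether the clusters differ in this was not tested. Other values moved with the class as well: neutrophil markers summed to 78.9 CPM in niche against 265.3 CPM in distal cells (0 and 1 of 9 genes at 0, Ly6g), proliferation markers to 94.8 CPM and 47.2 CPM (none of 7 at 0), and median depth was 11554 and 7310.5 UMIs. In cluster 5 neutrophil markers summed to 60.5 CPM and 339.7 CPM, and in cluster 0 to 75.5 CPM and 154.5 CPM. Their part was not tested.

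Interstitial macrophage-like cells, tissue macrophages outside the air spaces that carry Folr2 and Pf4, showed the larger difference, over 137 niche and 117 distal cells. The median log2 ratio of 46 measured genes was 0.50, with 42 above 0, against 0.08 and 55.5% above 0 over all genes. At 1.5-fold 15 were called higher, against 10.6% of all genes, and 0 lower, against 7.35%. At 1.2-fold 33 were called higher, against 15.2%, and 0 lower, against 9.29%. The count at 1.5-fold was 9 with a mitochondrial limit of 5%, and that at 1.2-fold was 17 with cells thinned to 2000 UMIs. Psmb5 was at 259.8 CPM in niche against 158.2 CPM in distal cells (0.71, 0.43 to 1.01), Psmb9 at 470.8 CPM and 319.1 CPM (0.56, 0.36 to 0.77), and Psme2 at 557.8 CPM and 328.3 CPM (0.76, 0.57 to 0.97). Psmb8 was at 873.9 CPM and 683.0 CPM (0.35, 0.21 to 0.50), and Psmb10 at 406.4 CPM and 286.1 CPM (0.50, 0.29 to 0.73).

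Among the 15 were 4 of the 6 base ATPases, Psmc1, Psmc4, Psmc5 and Psmc6, and the lid or other 19S genes Psmd2, Psmd6, Psmd7, Psmd11 and Psmd12, with Psmd12 highest at 137.5 CPM in niche against 71.2 CPM in distal cells (0.94, 0.53 to 1.40). The others were Psmb5, Psme2, Psma1, Psma4, Psma7 and Psmb2. Psme4 lay lowest, at 26.7 CPM and 36.9 CPM (-0.48, -1.14 to 0.24). Alveolar macrophage markers summed to 2.39 CPM in niche against 159.5 CPM in distal cells of this class (5 and 2 of 9 genes at 0, with Marco and Krt79 at 0 in both), and proliferation markers to 529.1 CPM and 213.6 CPM (none of 7 at 0). Neutrophil markers summed to 144.2 CPM and 282.2 CPM (Ly6g at 0 in both), and median depth was 13344 and 5818 UMIs. Their part in the difference was not tested.

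In dendritic-like cells, 62 niche and 207 distal, the set as a whole was level, with a median log2 ratio of 0.05 over 46 genes against 0.00 over all genes. This class holds conventional and plasmacytoid markers, and its mix of types in each library was not measured. Psmb8 was at 1243 CPM in niche against 1414 CPM in distal cells (-0.19, -0.30 to -0.07), and Psmb9 at 640.7 CPM and 781.2 CPM (-0.28, -0.45 to -0.13), whereas Psmb10 was at 419.2 CPM and 333.9 CPM (0.33, 0.12 to 0.53). Psmb10 was called higher at 1.2-fold, against 8.05% of all genes, and Psmb9 and the uncertain Psmg3 lower, against 7.73%. At 1.5-fold only Psmg3 was called, with 9 niche and 58 distal UMIs, against 5.92% of all genes lower and 6.06% higher. Proliferation markers summed to 320.4 CPM and 940.2 CPM and alveolar macrophage markers to 55.4 CPM and 198.0 CPM (7 and 0 of 9 genes at 0), and their part was not tested. Migratory dendritic-like cells, 67 niche and 54 distal, had a median of -0.04 over 42 genes against 0.08 over all genes. No gene was called at 1.5-fold, against 7.56% higher and 4.33% lower. At 1.2-fold only Psmg4, a 20S assembly chaperone, was lower, at 150.1 CPM and 207.7 CPM (-0.47, -0.91 to -0.03), against 6.04%, and 0 were higher, against 8.93%. Neutrophil markers summed to 45.2 CPM in niche against 2085 CPM in distal migratory dendritic-like cells, with Ly6g at 0 in both.

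**Figure D5:**
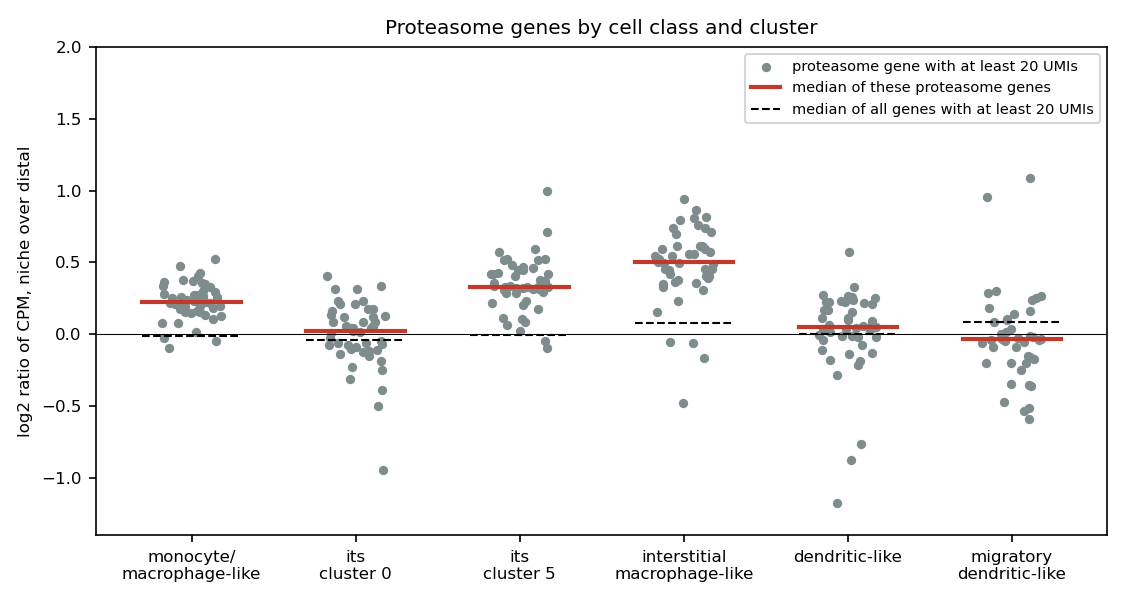
Log2 ratio of CPM, niche over distal, of each proteasome gene with at least 20 UMIs in the group (grey points), for each class with at least 50 cells in both libraries and for clusters 0 and 5 of the monocyte/macrophage-like class. Red lines are medians of these genes and dashed lines medians of all genes. The medians of the proteasome genes are 0.22, 0.02, 0.33, 0.50, 0.05 and -0.04 from left to right.

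The immunoproteasome share was lower in the niche library in the 4 classes compared, beyond counting error in 2 of them. The difference of niche minus distal was -1.41 percentage points in monocyte/macrophage-like cells, with 73.8% (73.5 to 74.2) and 75.2% (74.2 to 76.3), an odds ratio of 0.928 (0.876 to 0.984). It was -2.19 points in dendritic-like cells, with an odds ratio of 0.880 (0.778 to 0.994). In interstitial macrophage-like cells it was -1.10 points, with 71.6% and 72.7% and an odds ratio of 0.947 (0.828 to 1.083), and in migratory dendritic-like cells -0.70 points (0.956, 0.802 to 1.139). The last 2 intervals hold 1. The direction depended on the pair: with Psmb8 and Psmb5 alone the difference was 0.42 points in monocyte/macrophage-like cells, and with Psmb10 and Psmb7 alone it was 2.44 points in dendritic-like and 2.31 points in interstitial macrophage-like cells. Summed over all kept cells the share was 73.4% (73.1 to 73.6) in the niche and 71.0% (70.6 to 71.4) in the distal library, the opposite order, with alveolar macrophage-like cells making up 1135 of 3536 distal and 10 of 3080 niche cells.

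Genes around the proteasome were set beside it in monocyte/macrophage-like cells. Of 12 interferon gamma signalling genes, 3 were higher at 1.2-fold and 1 lower, with a median of -0.07. All genes of this class, with a median of -0.01, had 9.16% higher and 8.97% lower, and the counts of the lists here and in the next paragraph are to be read against these shares. Ciita, the activator of MHC class II genes, was at 121.9 CPM in niche against 54.2 CPM in distal cells (1.16, 0.91 to 1.44), and the receptor Ifngr1 at 103.6 CPM and 181.2 CPM (-0.81, -0.96 to -0.65). Of 12 genes of peptide loading on MHC class I, 3 were higher and 0 lower, with a median of 0.13, and all 3 are chaperones of the endoplasmic reticulum: Calr at 1101 CPM and 811.0 CPM (0.44, 0.37 to 0.51), Canx at 178.9 CPM and 136.6 CPM (0.39, 0.22 to 0.56), and Pdia3 at 702.5 CPM and 484.4 CPM (0.54, 0.45 to 0.63). The peptide transporter Tap1 was at 286.1 CPM and 275.0 CPM (0.06, -0.06 to 0.18), and the class I heavy chain H2-D1 at 5134 CPM and 5911 CPM (-0.20, -0.23 to -0.18).

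Of 10 proteasome partners 2 were higher at 1.2-fold, with a median of 0.06. Usp14, a deubiquitinase of the 19S cap, was at 73.3 CPM in niche against 52.0 CPM in distal cells (0.49, 0.22 to 0.78), and Pomp, the maturation factor of the core, at 714.3 CPM and 600.8 CPM (0.25, 0.17 to 0.33). Of 8 regulators of proteasome genes none was higher and 1 lower, with a median of -0.02. Nfe2l1, which drives proteasome genes when proteasome activity falls, was at 34.5 CPM and 33.1 CPM (0.05, -0.28 to 0.43). Ubiquitin and shuttle factors had 2 of 14 higher and 1 lower (median 0.03), and chaperones, most of them of the cytosol, 2 of 14 higher and 0 lower at 1.2-fold (median 0.13).

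In interstitial macrophage-like cells most of the listed chaperones were higher along with the proteasome. Of 14 chaperones 10 were higher at 1.2-fold and 0 lower, against 15.2% and 9.29% of all genes, with a median of 0.49 against 0.08. Among them were Hspd1 at 333.8 CPM in niche against 162.2 CPM in distal cells (1.04, 0.76 to 1.33) and Cct2, of the folding chamber TRiC, at 245.9 CPM and 131.9 CPM (0.89, 0.59 to 1.22). Hspd1 and Hspe1, both in this list, belong to the chaperonin of mitochondria, so the list is not purely cytosolic. Tap1 was at 224.4 CPM and 139.8 CPM there (0.68, 0.38 to 1.001). Of the 12 peptide loading genes, 3 were higher and 2 lower at 1.2-fold in this class, and of the 12 interferon gamma signalling genes 5 and 1. In dendritic-like cells Irf1, a transcription factor of the interferon response, was at 208.1 CPM in niche against 150.7 CPM in distal cells (0.47, 0.16 to 0.76), beside the lower Psmb8 and Psmb9 given above. Of the 12 interferon gamma signalling genes 6 lay above 0 there. At 1.2-fold 5 were higher and 0 lower, against 8.05% and 7.73% of all genes.

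The immunoproteasome share was set beside the levels of interferon response and antigen presentation genes across clusters, among them Tap1, which lies between Psmb9 and Psmb8 in the MHC region. For Tap1, over 11 clusters of the niche library Pearson's r was 0.76 and Spearman's rho 0.65, and over 15 clusters of the distal library 0.46 and 0.56. For Irf1 they were 0.74 and 0.55 in the niche and 0.40 and 0.41 in the distal library, and for Irf8, a factor of the myeloid lineage, 0.61 and 0.53, and 0.54 and 0.54. For Nlrc5, the activator of MHC class I genes, they were 0.24 and 0.17 in the niche and 0.44 and 0.51 in the distal library. With median depth r was -0.12 in niche and -0.16 in distal clusters. The niche clusters included 6, 7, 10 and 12, and the distal clusters 7, 12 and 13, all kept out of the named classes. Clusters of a library share its preparation and free RNA, so these values are a description of these cells.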

How the data were processed

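Single-cell RNA of 1 niche and 1 distal library was analysed. The deposited values are raw UMI counts, by gene and barcode. Per the file headers the niche matrix came from Cell Ranger 6.0.0 and the distal one from version 3.0.2, while the submitters' processing notes name Seurat 4.1.1, Cell Ranger 3.02, Bowtie2 and RSEM. The software and gene lists (32285 niche and 30149 distal rows) cannot be told apart from the groups. Of the shared identifiers, 442 overlap a gene of 1 list only on the same strand.

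The proteasome genes, gene lists and markers were chosen with earlier results of these data known. Barcodes under 200 genes or over 10% mitochondrial UMIs, 161 niche and 405 distal, were removed. Scrublet, in scanpy 1.11.5 with an expected rate of 0.03, called 1 niche and 4 distal doublets, which were removed. At 0.0755% of 6621 cells the caller had not worked. Both libraries were clustered together on 2000 variable genes without the proteasome genes, with 30 principal components, 20 neighbours and Leiden resolution 1.0 (igraph 0.11.9, scikit-learn 1.9.0). A class was named where 0.75 of its markers, and no fewer than 3, were each at 0.15 of the level in the highest cluster and in a share of 0.1 of the cells. The clusters had been seen when these thresholds were set. Cells outside named classes were 77 niche and 13 distal (cluster 6), 223 and 85 (cluster 7, with lymphocyte RNA), 347 and 11 (low UMI, cluster 10) and 88 and 248 (mixed clusters).

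UMIs were summed per class and library and scaled to CPM of all UMIs of the class. Log2 ratios had 0.5 UMI added to each sum, with exact conditional binomial intervals, levels had Poisson and shares Clopper-Pearson intervals, all at 95%. Genes needed at least 20 UMIs over both sums and classes at least 50 cells per library. UMIs of a 3′ kit count molecules and are not divided by gene length. Cells are not replicates, and no p-value is given. The ratio step was tested on simulated counts. Always named were the 6 catalytic genes, Psme1 and Psme2. In monocyte/macrophage-like cells the 3 highest and 3 lowest of the other genes with at least 100 UMIs were added, in other classes those past 1.5-fold, and further genes were named after their values were seen. Psme2b and Psmc3ip fell outside the symbol rule. The code used matplotlib 3.10.9, pandas 2.3.3, scipy 1.17.1 and numpy 2.4.6 under Python 3.11.15. Alternatives varied the filters, clustering, scaling, UMI minimum, depth, overlapping genes and catalytic pair. Values of 1 gene of the lists are not reported here.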

Additional observations from a re-analysis of the deposited data

Results flagged for a closer look

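The immunoproteasome genes Psmb8 and Psmb9 had ratios of opposite sign in 2 macrophage classes and in dendritic-like cells. The niche over distal log2 ratio of Psmb8 was 0.19 in monocyte/macrophage-like, 0.35 in interstitial macrophage-like and -0.19 in dendritic-like cells. That of Psmb9 was 0.16 in monocyte/macrophage-like, 0.56 in interstitial macrophage-like and -0.28 in dendritic-like cells. In cluster 0, with 854 of the 1659 niche monocyte/macrophage-like cells, the ratios were -0.05 for Psmb8 (-0.14 to 0.04) and -0.15 for Psmb9 (-0.28 to -0.02), and in migratory dendritic-like cells -0.05 (-0.20 to 0.10) and -0.04 (-0.24 to 0.16). Psmg4, a 20S assembly chaperone, had a log2 ratio of 0.40 in interstitial macrophage-like and -0.47 in migratory dendritic-like cells. Apart from Psmb8 in cluster 0 and Psmb8 and Psmb9 in migratory dendritic-like cells, each ratio had a counting interval on its own side of 0. The dendritic-like class holds conventional and plasmacytoid markers, and its mix of types in each library was not measured. With 1 library per group the difference between classes was not tested.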

How the results depend on the processing

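No paired analysis was possible because each group is 1 library and no test was made. Of 300 alternative values, 144 belonged to 14 comparisons. The median log2 ratio of the 47 genes stayed between 0.20 and 0.24 in monocyte/macrophage-like and between 0.39 and 0.62 in interstitial macrophage-like cells. The interstitial class could not be compared at resolution 0.5 or 2.0. The count called higher in interstitial macrophage-like cells was 9 at 1.5-fold with a mitochondrial limit of 5%, and 17 at 1.2-fold with cells thinned to 2000 UMIs.

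The niche minus distal difference in share, in percentage points, moved to -4.43 in dendritic-like cells without the highest 5% of doublet scores and to -3.90 in interstitial macrophage-like cells when proteasome genes could enter the clustering. With Psmb8 and Psmb5 alone it turned to 0.42 in monocyte/macrophage-like cells and was -4.11 in interstitial macrophage-like cells. With Psmb9 and Psmb6 alone it was -3.23 and 1.73 in these classes. With Psmb10 and Psmb7 alone it turned to 2.44 in dendritic-like cells and was 2.31 in interstitial macrophage-like cells.

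Alveolar minus monocyte/macrophage-like share in the distal library was -14.7 points when thinned, -16.7 with Psmb9 and Psmb6 alone and -3.10 with Psmb10 and Psmb7 alone. Migratory dendritic-like minus monocyte/macrophage-like share was 3.63 points in the niche and 2.13 in the distal library when thinned, 12.9 in the niche library for Psmb9, 8.56 in the distal library for Psmb8, and turned to -4.02 and -5.54 for Psmb10. The causes were not tested.

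Resolution 0.5 left no interstitial or migratory class to compare, and resolution 2.0 left 45 distal interstitial macrophage-like cells, under the minimum of 50. A mitochondrial limit of 5% left too few niche dendritic-like and distal migratory dendritic-like cells. Thinning left out 333 of 360 distal neutrophil-like cells, so depth limits that class. Leaving out cluster 1, chosen after seeing the data, moved none of the 14 comparisons beyond their limits. Of 156 class shares under alternatives, 56 moved by more than their counting interval.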
